A study of Mus musculus with 6 samples.

Results

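DNA and histone modifying enzymes were followed in cultures of 3T3-L1, a line of mouse fibroblasts of embryonic origin that can form fat cells in a dish. The members were chosen by name: protein-coding genes of GENCODE M21 whose symbols start with Hdac, Sirt, Kdm, Kmt, Kat, Prmt, Tet or Dnmt and a number, plus Ezh1, Ezh2, Eed, Suz12, Ehmt1, Ehmt2, Setdb1, Setd2, Dot1l and Nsd1. This gave 78 of the 54752 genes in the deposited tables. RNA was sequenced from 3 libraries labelled 3T3-L1 adipocyte and 3 labelled 3T3-L1 preadipocyte, each numbered 1 to 3. The strain (C57BL/6J), the tissue (Embryo), the absence of a treatment and 1 medium description that holds the unexplained abbreviation DMI were the same in the labels of all 6 libraries. The source name read Adipocyte throughout, so the groups rest on titles and cell type labels. All cells are of 1 line, and whether the replicates of a group came from separate cultures is not stated, so each p-value rests on a spread between libraries that may be technical.

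These enzymes write and erase methyl and acetyl groups on DNA and on the tails of histones. DNA methyltransferases (DNMT) add methyl groups to cytosine and TET dioxygenases oxidise them; acetyltransferases (KAT) and methyltransferases (KMT, PRMT) mark histone lysines and arginines; deacetylases (HDAC, sirtuins) and demethylases (KDM) take the marks away. In fat cell differentiation such marks are known to be laid down and removed around the genes of the lipid program, and several of the enzymes also act on proteins outside the nucleus, the mitochondrial sirtuins among them.

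Regulatory sequence of 4 members is shown because their RNA differed most among members that kept their call under every alternative tried and that have 1 listed start in the RefSeq promoter table. A window of 250 bases before to 50 bases after the start was found for 65 of the 78 members, 47 of them with 1 start. The windows lie, on GRCm38.p6, at chr10:80754953-80755252 on the plus strand for Dot1l, chr7:4739877-4740176 on the plus strand for Kmt5c, chr10:62887275-62887574 on the minus strand for Tet1 and chr6:91156565-91156864 on the plus strand for Hdac11. The Tet1 window lies within the gene as annotated by GENCODE M21 (chromosome 10, 62804570 to 62908996, minus strand). It therefore covers an internal start and not the first base of the gene. Dot1l and Kmt5c were higher in adipocytes, and Tet1 and Hdac11 lower. Capitals mark matches, on either strand, to an E2F motif (TTTCCCGC, TTTCGCGC, TTTGCCGC or TTTGGCGC), a GC box (GGGCGG), an ETS motif (CCGGAAG) or a CCAAT box (CCAAT).
Dot1l: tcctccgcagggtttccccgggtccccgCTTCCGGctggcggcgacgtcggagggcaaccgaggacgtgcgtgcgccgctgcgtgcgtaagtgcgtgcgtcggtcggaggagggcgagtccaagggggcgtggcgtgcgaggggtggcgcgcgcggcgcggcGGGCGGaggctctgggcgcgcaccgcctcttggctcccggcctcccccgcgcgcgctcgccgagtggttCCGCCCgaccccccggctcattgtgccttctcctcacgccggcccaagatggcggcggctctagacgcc
Kmt5c: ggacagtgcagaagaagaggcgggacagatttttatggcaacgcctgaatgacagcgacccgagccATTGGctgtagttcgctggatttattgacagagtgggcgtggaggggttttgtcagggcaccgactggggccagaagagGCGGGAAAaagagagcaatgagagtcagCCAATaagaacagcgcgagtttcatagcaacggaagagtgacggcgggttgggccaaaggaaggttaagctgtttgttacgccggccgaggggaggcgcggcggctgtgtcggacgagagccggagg
Tet1: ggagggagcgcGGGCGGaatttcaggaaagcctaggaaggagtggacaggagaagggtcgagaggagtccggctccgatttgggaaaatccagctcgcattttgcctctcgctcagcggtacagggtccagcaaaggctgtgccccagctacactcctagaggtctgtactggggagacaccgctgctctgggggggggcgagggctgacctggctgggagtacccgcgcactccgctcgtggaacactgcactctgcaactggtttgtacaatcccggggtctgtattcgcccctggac
Hdac11: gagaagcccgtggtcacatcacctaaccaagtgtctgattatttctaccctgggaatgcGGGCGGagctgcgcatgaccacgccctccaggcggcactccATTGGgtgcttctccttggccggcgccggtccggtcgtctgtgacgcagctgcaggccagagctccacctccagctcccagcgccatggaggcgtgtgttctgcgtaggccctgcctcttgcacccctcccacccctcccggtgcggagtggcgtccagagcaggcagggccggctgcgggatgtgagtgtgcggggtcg

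The Dot1l window held 2 GC boxes and 1 ETS motif, and the Kmt5c window 1 E2F motif and 2 CCAAT boxes. The Tet1 window held 1 GC box, and the Hdac11 window 1 GC box and 1 CCAAT box. Over the 47 members with 1 start, a GC box was found in 68.1% of windows, against 35.2% of 22862 windows of all genes with 1 listed start. An E2F motif stood in 10.6% of member windows against 2.32%, an ETS motif in 17.02% against 9.12% and a CCAAT box in 48.9% against 38.2%. Of 4 further motifs searched on both strands, the NRF1 motif (GCGC, any 2 bases, GCGC) was in 25.5% against 6.32%, the CRE core TGACG in 36.2% against 20.6%, the E-box CACGTG in 10.6% against 7.12% and the C/EBP motif TTGCNNAA in 8.51% against 10.8%. Member windows were richer in CpG, with a median of 21 CpG against 7, so all shares are read beside that difference in base composition. The windows of all genes were not limited to genes with enough counts to be tested, and no comparison within tested genes was made. Few member windows held an E2F motif (5), an E-box (5), an ETS motif (8) or a C/EBP motif (4). Matches were counted for each motif separately and may overlap. They are letters in a window and say nothing of binding.

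The deposited tables held 22496486 to 26314076 expected counts per library. Adipocyte library 2 had a larger share of ribosomal RNA (0.731%) than adipocyte libraries 1 and 3 (0.0494% and 0.0706%). The cell labels were checked on markers: all 7 adipocyte markers were higher and all 7 preadipocyte markers lower in adipocytes. Summed markers of macrophages, endothelium, skeletal muscle and epithelium stayed at 0.234 to 1.95 CPM in adipocytes and 0 to 2.18 CPM in preadipocytes, with Adgre1, Itgam, Tie1, Myod1, Myog and Ckm at 0 counts in every library. Some of the rest differed between the groups. The 1 tested muscle marker, Acta1, was higher in adipocytes (log2 fold change 4.03), with the muscle list at 1.12 to 1.95 CPM in adipocytes against 0.0395 to 0.157 CPM in preadipocytes. Of 2 tested macrophage markers, 1 was lower in adipocytes. Both calls held in every alternative that tested the gene. Cell cycle genes differed between the groups: 20 of 22 were lower and 1 higher in adipocytes, against 37.9% and 35.7% of all tested genes. Mki67 was the largest fall (-3.68, SE 0.15, adjusted p = 5.96e-08) and Ccne2 the rise (0.89, SE 0.23, adjusted p = 0.00624). Values of this form are the log2 fold change, adipocyte over preadipocyte, of edgeR's quasi-likelihood fit. The call of Ccne2 did not hold in every alternative, while the 20 lower calls of the list did. The summed level of the list was 171.4 to 181.3 CPM in adipocytes against 525.3 to 541.1 CPM in preadipocytes. The part of this difference in the results on the enzymes was not tested. In bulk samples, fewer cells of a type and less RNA per cell cannot be told apart.

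The enzymes changed in both directions. Of the 74 members with enough counts to be tested, 23 were higher in adipocytes, 21 lower and 30 not called at an adjusted p under 0.05 (edgeR quasi-likelihood F-test, Benjamini-Hochberg over all 14726 tested genes). That is 59.5% of members called, against 73.5% of all tested genes. Higher were 31.1% of members and 35.7% of all genes, and lower 28.4% of members and 37.9% of all genes. Every count of called genes in a class or list is to be read beside these shares of all genes. Differences of at least 2-fold were called for 8 higher and 6 lower members, or 18.9%, against 41.2% of all tested genes. The median size of the log2 fold change, adipocyte over preadipocyte, was 0.46 for members and 0.78 for all tested genes, and the median with its sign was -0.06 for both. The levels of the groups in CPM (counts scaled to the TMM-adjusted library size) did not overlap for 48 members, or 64.9%, against 76.5% of all tested genes. Members together took 0.449% ± 0.018 of all counts in adipocytes and 0.535% ± 0.0088 in preadipocytes (SD, n = 3 each), and their summed TPM, which is per transcript length, was 1867 ± 40.4 in adipocytes and 2501 ± 17.9 in preadipocytes.

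**Figure D1:**
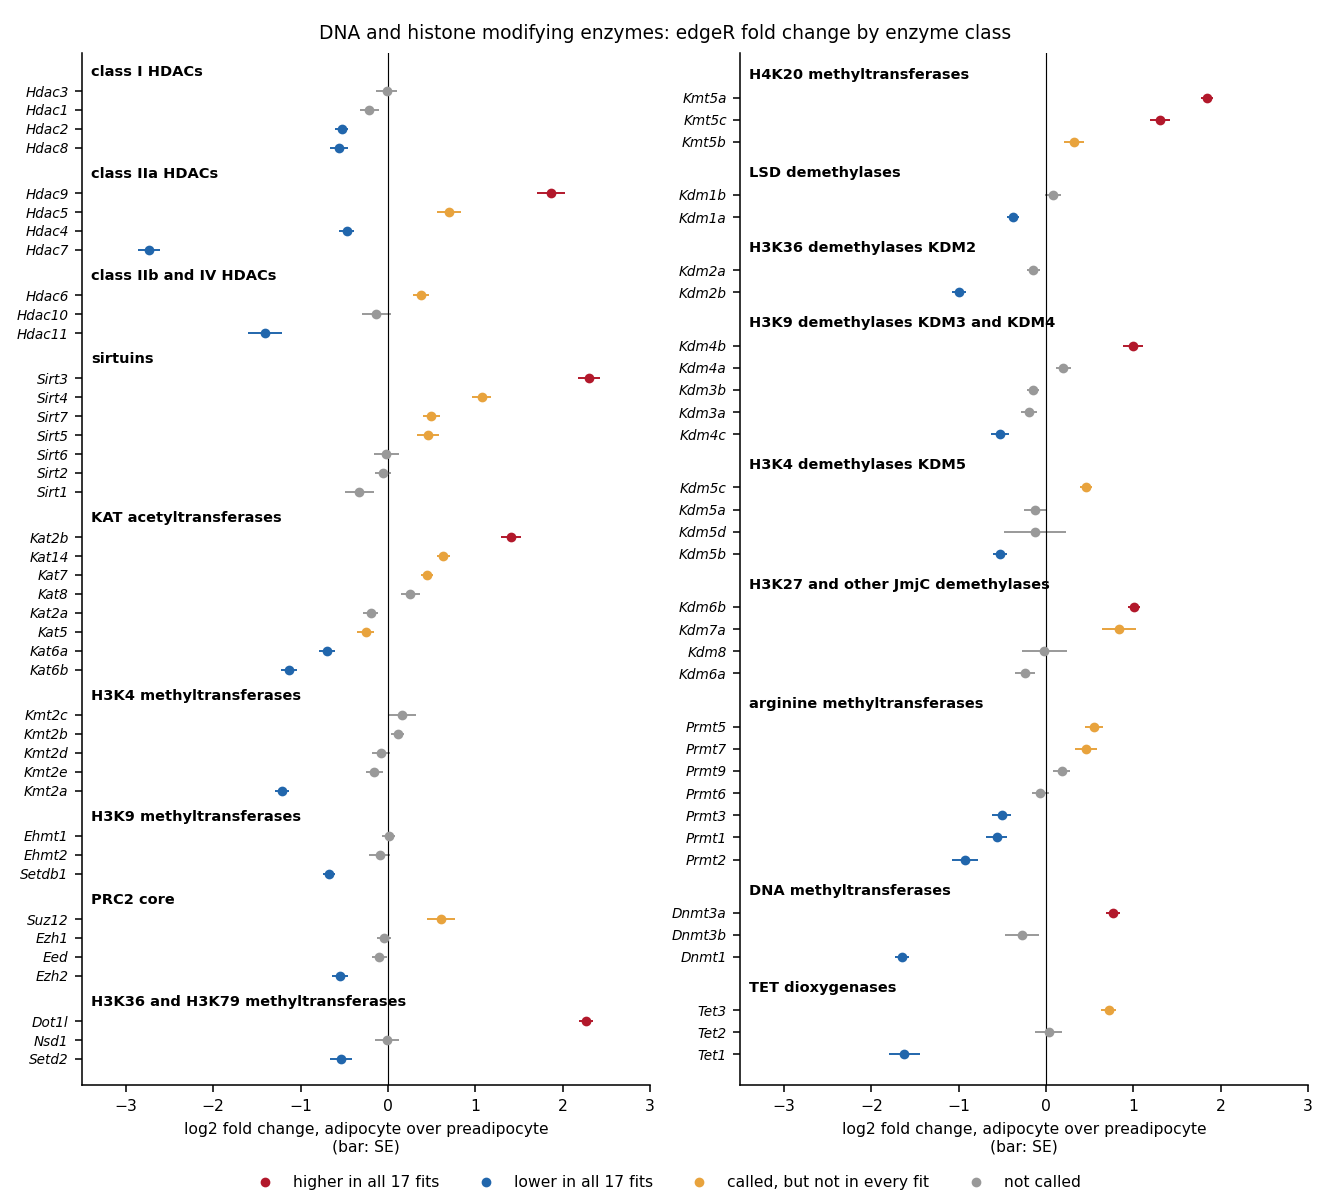
Log2 fold change (adipocyte over preadipocyte, horizontal axis) with its standard error (bars) for the 74 tested members, grouped by enzyme class down the page; colour shows whether a member was called higher or lower in all 17 fits, called but not in every fit, or not called. Sirt3 (2.30) and Dot1l (2.27) lie farthest to the right and Hdac7 (-2.73) farthest to the left.

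The members that changed most lie, on GRCm38, as follows: Sirt3 (ENSMUSG00000025486.17) on chromosome 7 from 140863666 to 140882309, Dot1l (ENSMUSG00000061589.14) on chromosome 10 from 80755206 to 80795461, Hdac7 (ENSMUSG00000022475.19) on chromosome 15 from 97792664 to 97844502 and Dnmt1 (ENSMUSG00000004099.16) on chromosome 9 from 20907209 to 20959888. The 4 members that were not tested had few counts. Summed over 3 libraries, Kdm4d had 6 counts in adipocytes and 15 in preadipocytes, Dnmt3l 2 in adipocytes and 0 in preadipocytes, Dnmt3c 1 in adipocytes and 0 in preadipocytes, and Prmt8 0 in both groups. Among tested members the mean TPM over all 6 libraries ran from 0.182 for Kdm5d to 135.9 for Ehmt2, with a median of 21.7, and 64 members exceeded 10 TPM on average in at least 1 group.

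How values are scaled between libraries bears on the direction of small changes. Each of the 74 members was recomputed under 16 alternatives, which with the fit reported here makes 17 fits. Called in the same direction in all 17 were 29 members: 9 higher (12.2%, against 21.8% of all tested genes) and 20 lower (27.03%, against 31.4%); in either direction the share of all tested genes was 53.2%. The 9 were Dnmt3a, Dot1l, Hdac9, Kat2b, Kdm4b, Kdm6b, Kmt5a, Kmt5c and Sirt3. The 20 were Dnmt1, Ezh2, Hdac2, Hdac4, Hdac7, Hdac8, Hdac11, Kat6a, Kat6b, Kdm1a, Kdm2b, Kdm4c, Kdm5b, Kmt2a, Prmt1, Prmt2, Prmt3, Setd2, Setdb1 and Tet1. Of the other 14 higher calls, 4 (Hdac5, Kat14, Sirt4 and Tet3) were lost with limma on TPM alone, and 10 (Hdac6, Kat7, Kdm5c, Kdm7a, Kmt5b, Prmt5, Prmt7, Sirt5, Sirt7 and Suz12) with total counts as well. Relative to the fit reported, total counts moved the median log2 fold change of all genes by -0.33, and limma on log2(TPM + 1) by -0.48. With total counts 13 members were higher and 43 lower (26.6% and 50.8% of all tested genes), and with limma on log2(TPM + 1) 9 were higher and 46 lower (22.2% and 56.6% of all genes). Limma on log2(TPM + 0.1) gave the same counts of members (22.1% and 56.4% of all genes), upper-quartile factors 22 higher and 30 lower (31.7% and 43.1% of all genes), and the replicate block 27 higher and 29 lower (39.1% and 42.2% of all genes). The remaining fits lay closer to the one reported. RLE factors gave 25 higher and 20 lower members (37.3% and 36.2% of all genes), DESeq2 24 and 20 (28.8% and 27.1%) and the fit with no low-count filter 25 and 20 (22.7% and 21.4%). The shares of all genes for DESeq2 and for no low-count filter are over 19488 and 26772 genes, against 14726 in the fit reported. The added genes have low counts, and 5612 and 6073 genes were called higher, against 5252 in the fit reported. These shares are therefore not comparable with those of the 74 members. The effective-length offset gave 24 and 23 (34.8% and 36.9%) and the fit without the 50 most abundant genes 23 and 21 (35.7% and 37.8%).

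Each library was also left out in turn. Without adipocyte library 1 there were 24 higher and 22 lower members (36.2% and 37.1% of all genes), without adipocyte library 2 24 and 20 (33.9% and 33.9%) and without adipocyte library 3 24 and 22 (35.7% and 36.2%). Without preadipocyte library 1 there were 23 and 20 (35.3% and 36.6% of all genes), without preadipocyte library 2 22 and 20 (33.3% and 35.1%) and without preadipocyte library 3 22 and 20 (32.9% and 34.8%). The calls of 9 members changed in at least 1 of these 6 fits, and their values stand beside them.

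**Figure D2:**
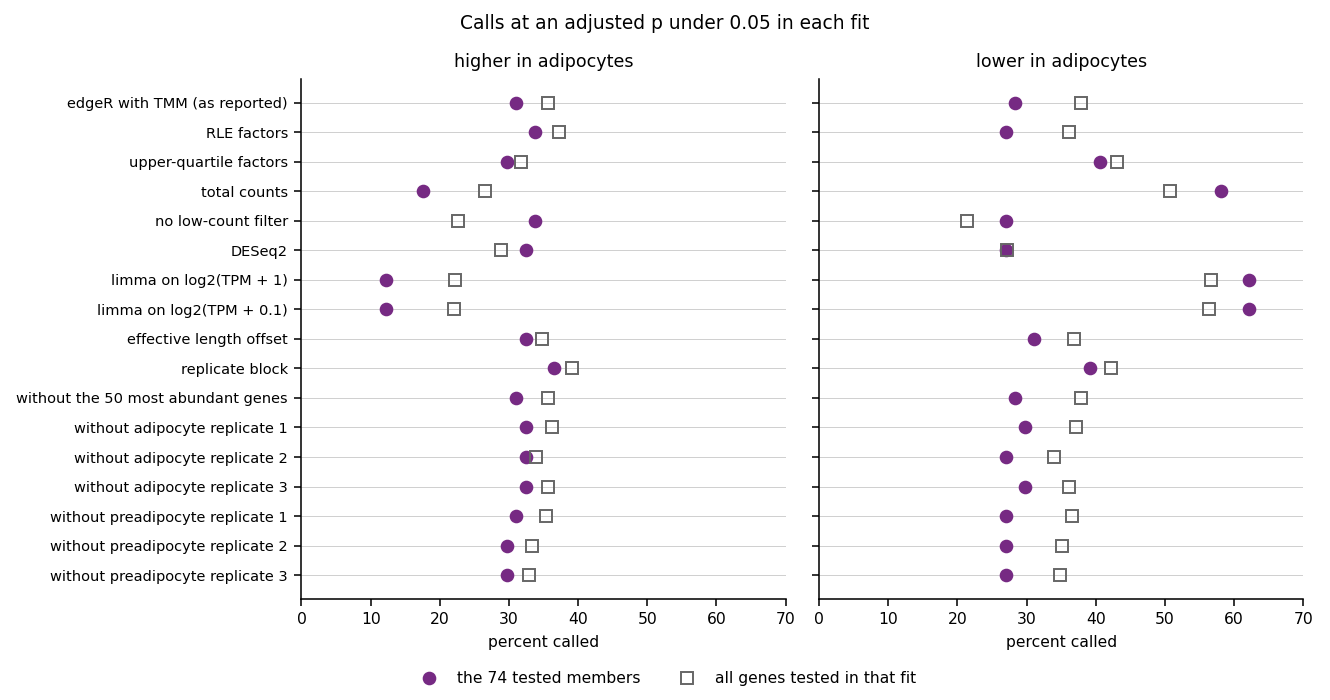
Percent of the 74 tested members (filled circles) and of all genes tested in that fit (open squares) called higher (left) and lower (right) in adipocytes in each of the 17 fits. The open squares of DESeq2 and of no low-count filter are over larger sets that hold more genes of low count. Total counts and both limma fits on TPM turn the balance towards lower calls, for members (13 higher and 43 lower with total counts) as for all genes.

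DNA methyltransferases changed in opposite directions. Dnmt1, which copies methylation onto new DNA strands after replication, stood at 21.5, 20.5 and 19.6 CPM in adipocytes, against 66.8, 63.1 and 63.2 CPM in preadipocytes. Every adipocyte library was below every preadipocyte library, and the log2 fold change was -1.65, SE 0.077, adjusted p = 1.37e-07. Dnmt3a, which methylates new sites, stood at 151, 167 and 173 CPM in adipocytes, against 90.9, 101 and 97.4 CPM in preadipocytes, with no overlap and a log2 fold change of 0.76, SE 0.081, adjusted p = 2.86e-05. Across the alternatives Dnmt1 kept a fold change of -2.18 to -1.56 and Dnmt3a one of 0.28 to 0.83. The third enzyme tested, Dnmt3b, also a methyltransferase of new sites, was at 0.79 ± 0.093 TPM in adipocytes and 1.21 ± 0.34 TPM in preadipocytes and was not called, except as lower with total counts (-0.60). Shares within a class do not depend on scaling between libraries: Dnmt3a made up 80.6% ± 1.36 of the class's summed TPM in adipocytes and 44.98% ± 1.57 in preadipocytes, and Dnmt1 16.7% ± 1.26 in adipocytes and 52.4% ± 1.80 in preadipocytes (SD, n = 3 each). Uhrf1, the partner that brings Dnmt1 to replicated DNA, led the falls in a list of 12 readers and helpers of DNA methylation, at 1.38, 1.07 and 1.34 CPM in adipocytes, against 19.02, 16.6 and 19.3 CPM in preadipocytes (log2 fold change -3.85, SE 0.15, adjusted p = 3.83e-08). Of that list 7 were lower and 3 higher (1 with total counts), and Gadd45a, a stress gene with a role in demethylation, led the rises with 1.61, SE 0.076, adjusted p = 1.4e-07.

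Of the TET dioxygenases, Tet1 fell and Tet3 was higher. Tet1 stood at 3.03, 3.78 and 3.50 CPM in adipocytes, against 8.30, 11.4 and 12.1 CPM in preadipocytes, with no overlap and a log2 fold change of -1.63, SE 0.18, adjusted p = 3.44e-05. Tet3, the most abundant of the class, stood at 173, 197 and 199 CPM in adipocytes, against 106, 122 and 118 CPM in preadipocytes, also without overlap (log2 fold change 0.72, SE 0.088, adjusted p = 7.77e-05). The call of Tet3 was lost with limma on log2(TPM + 1), where its value was 0.18. Tet2 had a log2 fold change of 0.03, SE 0.16, adjusted p = 0.877 and overlapping groups, and limma on log2(TPM + 1) gave -0.46. By TPM, Tet1 made up 2.03% ± 0.0943 of the class in adipocytes and 7.70% ± 0.0320 in preadipocytes (SD, n = 3 each), and Tet3 79.6% ± 2.75 in adipocytes and 67.02% ± 0.506 in preadipocytes.

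**Figure D3:**
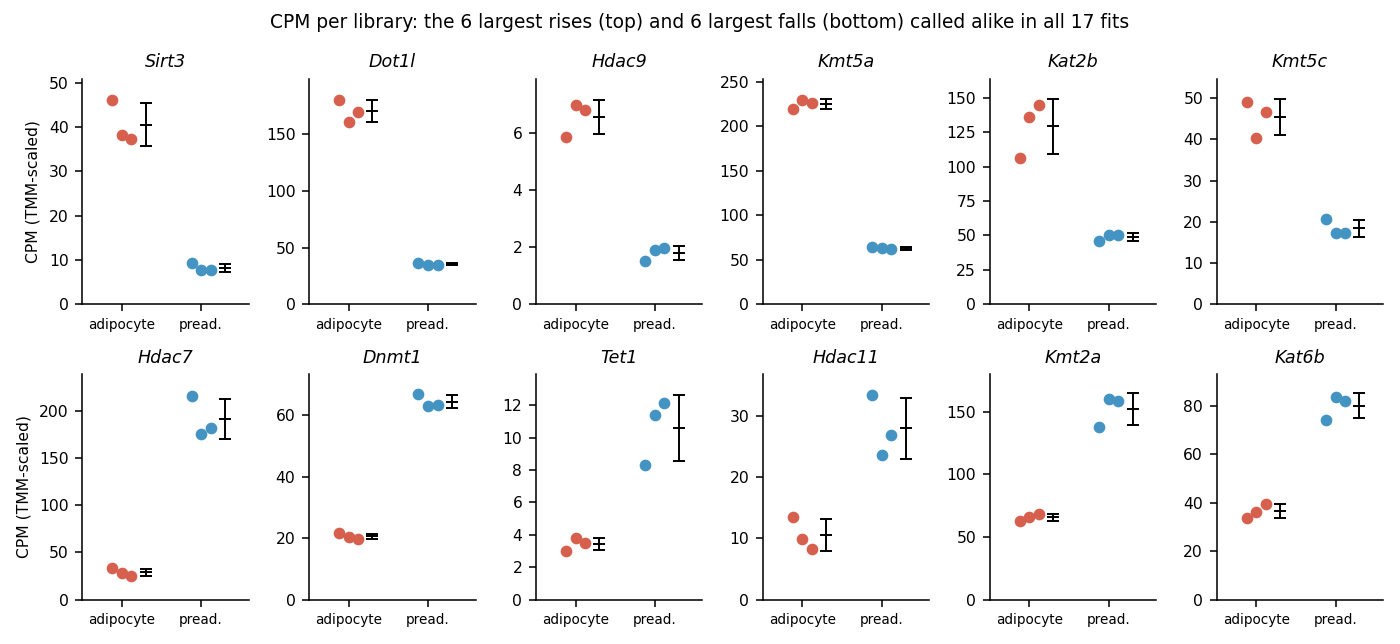
CPM (TMM-scaled) of each library as points, adipocytes left and preadipocytes right in every panel, with mean and SD beside them (n = 3 each), for the 6 largest rises (top row) and 6 largest falls (bottom row) among members called alike in all 17 fits; each panel has its own axis from 0. In all 12 panels the points of the groups lie apart, for Dot1l at 180.4, 161 and 169.5 CPM in adipocytes, against 36.4, 34.8 and 35.03 CPM in preadipocytes.

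Class IIa histone deacetylases, which carry signals between cytoplasm and nucleus and have little catalytic activity of their own, changed in opposite directions within the class. Hdac7 was at 32.9, 27.7 and 25.5 CPM in adipocytes, against 216, 176 and 182 CPM in preadipocytes, the largest fall of any member (log2 fold change -2.73, SE 0.12, adjusted p = 1.07e-07). All adipocyte values lay far below the lowest preadipocyte value. Hdac9, the rarest of the class by TPM, was at 5.88, 7.01 and 6.84 CPM in adipocytes, against 1.53, 1.90 and 1.96 CPM in preadipocytes (log2 fold change 1.87, SE 0.16, adjusted p = 6.74e-06). Hdac4 fell (-0.47, SE 0.086, adjusted p = 0.00100) and Hdac5 was higher (0.70, SE 0.14, adjusted p = 0.00142), although limma on log2(TPM + 1) gave 0.10 for Hdac5 and no call. In shares of the class's TPM, Hdac7 took 14.2% ± 0.379 in adipocytes and 60.4% ± 1.67 in preadipocytes, and Hdac5 67.6% ± 1.57 in adipocytes and 28.1% ± 1.32 in preadipocytes (SD, n = 3 each). The ratio of Hdac5 to Hdac7, a pair chosen after its values were seen, was 4.96, 4.79 and 4.51 in adipocyte libraries and 0.467, 0.432 and 0.498 in preadipocyte libraries.

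Class I deacetylases, the catalytic subunits of the large corepressor complexes, held 2 lower members of 4 and none higher, and all 4 were lower with either limma on log2(TPM + 1) or total counts. Hdac2, the most abundant of the class by mean TPM, was at 75.2, 76.4 and 85.8 CPM in adipocytes, against 114, 114 and 114 CPM in preadipocytes (-0.53, SE 0.076, adjusted p = 0.000208). Hdac8 was at 7.87, 8.17 and 8.87 CPM in adipocytes, against 12.8, 11.97 and 11.98 CPM in preadipocytes (-0.56, SE 0.10, adjusted p = 0.00110). In both the groups lay apart. Hdac1 had a log2 fold change of -0.21, SE 0.11, adjusted p = 0.110, with overlapping groups, and a fit that blocks on the replicate number called it lower (adjusted p = 0.00276). It was also lower without adipocyte library 1 (-0.29, edgeR adjusted p = 0.0239) and with upper-quartile factors (-0.35), the effective-length offset (-0.29) and total counts (-0.54). Reads of Hdac1 cannot all be placed, since 40.0% of its 31-base words also occur in other genes, mainly the pseudogene Gm10093. That pseudogene had 50, 76 and 54 counts in adipocytes and 40, 64 and 73 counts in preadipocytes. Hdac3, the deacetylase of the NCoR complex, had -0.02, SE 0.12, adjusted p = 0.906, and was called lower with total counts (-0.34).

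Of the remaining classical deacetylases, Hdac11, the sole class IV enzyme, was at 13.4, 9.81 and 8.31 CPM in adipocytes, against 33.4, 23.6 and 26.8 CPM in preadipocytes (-1.41, SE 0.19, adjusted p = 0.000151). The Hdac11 groups did not overlap, but 16.3% of its 31-base words lie on the opposite strand of other genes, mainly Gm44002, and without strand their reads cannot be told apart. Hdac6, a cytoplasmic enzyme that deacetylates tubulin, was at 48.98, 43.6 and 48.6 CPM in adipocytes, against 39.7, 34.8 and 33.8 CPM in preadipocytes (0.38, SE 0.092, adjusted p = 0.00470), a call that total counts ended and that turned to -0.19 with limma on log2(TPM + 1). Hdac10 was not called (-0.13, SE 0.17, adjusted p = 0.493), but was lower with total counts (-0.46).

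Among sirtuins, the deacetylases that use NAD, 4 of 7 were higher and none lower, against 35.7% and 37.9% of all tested genes. With total counts 2 were higher and 3 lower (26.6% and 50.8% of all genes). With limma on log2(TPM + 1) 1 was higher and 3 lower (22.2% and 56.6% of all genes). The replicate block called 4 higher and 1 lower. The mitochondrial members Sirt3, Sirt4 and Sirt5 were among the 4. Sirt3, the main mitochondrial deacetylase, was at 46.1, 38.3 and 37.3 CPM in adipocytes, against 9.28, 7.70 and 7.70 CPM in preadipocytes, the largest rise of any member (2.30, SE 0.12, adjusted p = 2.91e-07). Every adipocyte library was above every preadipocyte library, and the fold change stayed between 1.85 and 2.44 in all alternatives. Of its 31-base words, 11.8% lie opposite other genes, mainly its neighbour Ric8a. Sirt4 had 1.07, SE 0.10, adjusted p = 1.65e-05 and Sirt5 0.46, SE 0.12, adjusted p = 0.00843. Of the 31-base words of Sirt5, 16.3% also occur in other genes, mainly Wdr31, and 12.5% lie opposite other genes, mainly Gm47652. The nucleolar Sirt7 had 0.50, SE 0.096, adjusted p = 0.00133, which is -0.02 with limma on log2(TPM + 1). Sirt2, a mainly cytoplasmic enzyme and the most abundant sirtuin, was at 94.7, 84.1 and 78.8 CPM in adipocytes, against 96.4, 83.9 and 88.4 CPM in preadipocytes and was not called (-0.06, SE 0.092, adjusted p = 0.573). Nor were Sirt6 (-0.02, SE 0.14, adjusted p = 0.918) and Sirt1 (-0.33, SE 0.17, adjusted p = 0.111), both nuclear, although the replicate block called Sirt1 lower (adjusted p = 0.0113). Total counts called Sirt2 (-0.39), Sirt6 (-0.35) and Sirt1 (-0.65) lower. Sirt3 made up 23.5% ± 0.837 of sirtuin TPM in adipocytes and 5.96% ± 0.408 in preadipocytes, and Sirt2 34.2% ± 0.486 in adipocytes and 51.3% ± 2.13 in preadipocytes (SD, n = 3 each).

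**Figure D4:**
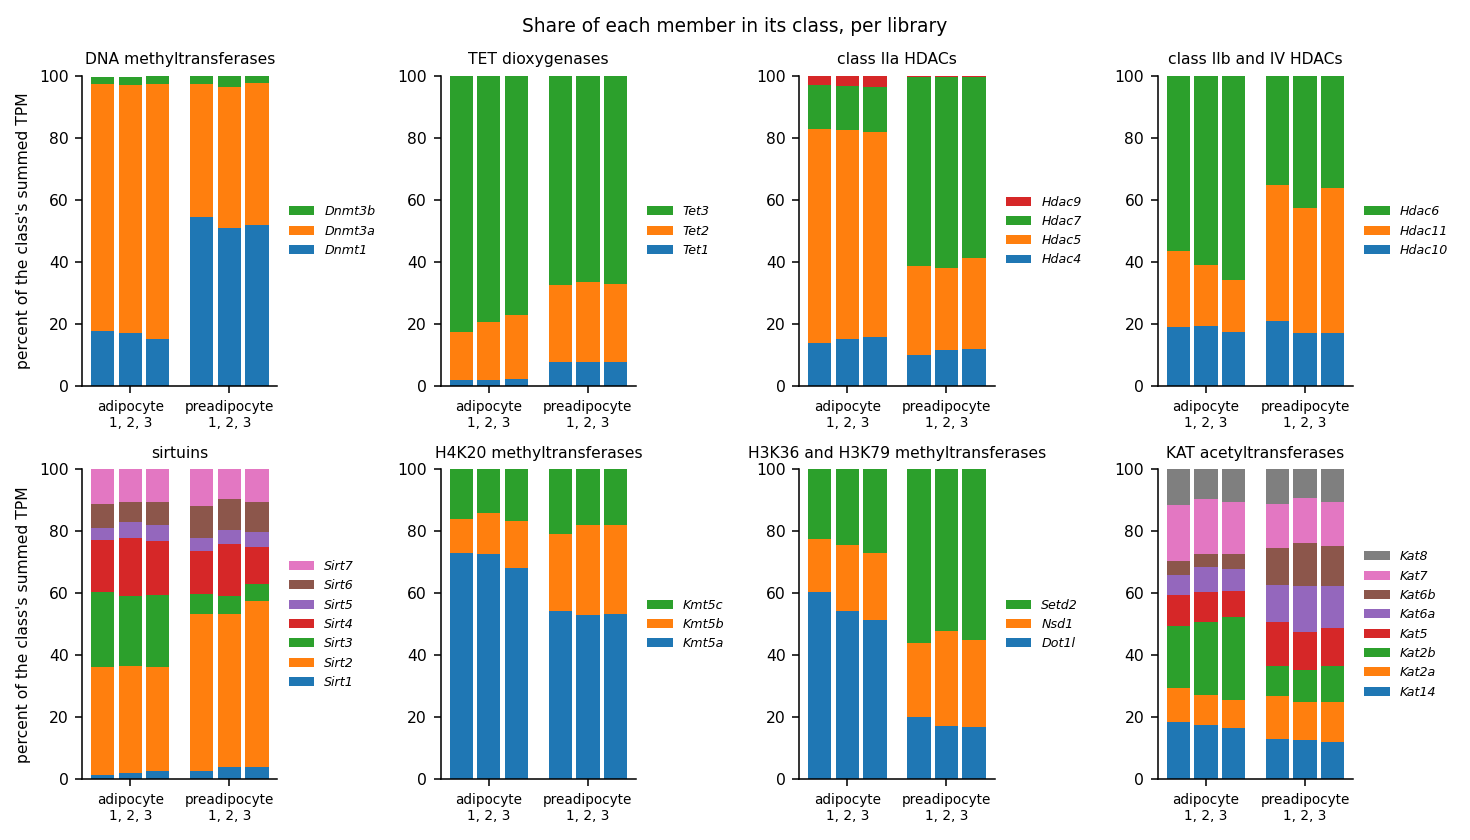
Share of each member in the summed TPM of its class (percent, stacked bars), adipocyte libraries 1 to 3 left and preadipocyte libraries 1 to 3 right, for 8 classes; members under 0.2% in both groups are not drawn. Hdac7 takes 14.2% of class IIa in adipocytes and 60.4% in preadipocytes, and Dnmt3a, Dot1l and Sirt3 take larger shares in adipocytes.

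Among the 8 lysine acetyltransferases 3 were higher and 3 lower, while total counts gave 2 and 4, and limma on log2(TPM + 1) 1 and 5. Kat2b (PCAF), a coactivator subunit, was at 107, 136 and 145 CPM in adipocytes, against 45.6, 50.6 and 50.02 CPM in preadipocytes (1.41, SE 0.12, adjusted p = 6.25e-06). Its paralogue Kat2a was not called (-0.20, SE 0.084, adjusted p = 0.0621) but was called lower with the replicate block (adjusted p = 0.00801) and without adipocyte library 1 (-0.23, edgeR adjusted p = 0.0326), and with upper-quartile factors (-0.33) and total counts (-0.52). Kat6b was at 33.6, 36.2 and 39.5 CPM in adipocytes, against 74.02, 83.7 and 82.1 CPM in preadipocytes (-1.13, SE 0.090, adjusted p = 4.25e-06), and its paralogue Kat6a fell as well (-0.70, SE 0.090, adjusted p = 0.000105). Both are MYST enzymes that acetylate histone H3. The smaller changes were Kat14 (0.63, SE 0.075, adjusted p = 6.1e-05), Kat7 (0.44, SE 0.069, adjusted p = 0.000336) and Kat5 (-0.25, SE 0.099, adjusted p = 0.0437). Kat14 was not called with limma on log2(TPM + 1) (0.17), Kat7 neither there (-0.01) nor with total counts. Kat5 was lost in 9 of 16 alternatives, with each library left out among them (-0.30 to -0.14, edgeR adjusted p = 0.0503 to 0.255). Kat8 (0.26, SE 0.11, adjusted p = 0.0602) was called higher with the replicate block (adjusted p = 0.00908) and without adipocyte library 2 (0.36, edgeR adjusted p = 0.0365), and lower with limma on log2(TPM + 1) (-0.29). RLE factors (0.32) and the fit with no low-count filter (0.32) also called Kat8 higher. In a list of 6 other acetyltransferases, Ncoa1, a nuclear receptor coactivator, rose (2.07, SE 0.10, adjusted p = 1.87e-07), and 4 fell, led by its relative Ncoa3 (-1.61, SE 0.089, adjusted p = 3.67e-07). The call of Ep300 among the 4 was lost without any 1 adipocyte library and without preadipocyte library 2 or 3. Its values there were -0.20 to -0.16 (edgeR adjusted p = 0.107 to 0.147), and 3 genes were then lower.

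All 3 histone H4 lysine 20 methyltransferases were higher, or 2 of them with limma on log2(TPM + 1), total counts or upper-quartile factors. Kmt5a, which places the first methyl group and is known for its role in the cell cycle, was at 219, 229.6 and 226 CPM in adipocytes, against 64.2, 62.6 and 61.5 CPM in preadipocytes (1.84, SE 0.069, adjusted p = 3.41e-08). Kmt5c, which adds the further methyl groups of silent chromatin, was at 49.2, 40.5 and 46.7 CPM in adipocytes, against 20.8, 17.3 and 17.2 CPM in preadipocytes (1.30, SE 0.11, adjusted p = 6.81e-06). Both kept their call in every fit, with values of 1.30 to 1.91 for Kmt5a and 0.61 to 1.42 for Kmt5c. Kmt5b, the paralogue of Kmt5c, was at 82.3, 94.7 and 112 CPM in adipocytes, against 72.4, 80.7 and 78.9 CPM in preadipocytes (0.32, SE 0.11, adjusted p = 0.0316). That call was lost with upper-quartile factors (0.18) and without preadipocyte library 1, 2 or 3 (0.27, 0.35 and 0.33, edgeR adjusted p = 0.0893, 0.0524 and 0.0731), and total counts gave -0.01. By TPM, Kmt5a stood at 169.2 ± 0.69 in adipocytes and 67.9 ± 0.73 in preadipocytes (SD, n = 3 each), which makes it the most abundant member in adipocytes.

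The sole H3 lysine 79 methyltransferase, Dot1l, was at 180.4, 161 and 169.5 CPM in adipocytes, against 36.4, 34.8 and 35.03 CPM in preadipocytes. The groups lay far apart (log2 fold change 2.27, SE 0.076, adjusted p = 1.89e-08), and the value ran from 1.55 to 2.35 over the alternatives. Setd2, which trimethylates H3 lysine 36 behind the elongating polymerase, was at 69.3, 80.7 and 95.5 CPM in adipocytes, against 105, 128 and 124 CPM in preadipocytes (-0.54, SE 0.13, adjusted p = 0.00414), and Nsd1, which dimethylates the same residue, did not pass (-0.01, SE 0.14, adjusted p = 0.931), although limma on log2(TPM + 1) called it lower (-0.42). Of the TPM of these 3 genes, Dot1l made up 55.4% ± 4.67 in adipocytes and 18.01% ± 1.71 in preadipocytes, and Setd2 24.6% ± 2.26 in adipocytes and 54.5% ± 2.06 in preadipocytes (SD, n = 3 each).

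For H3 lysine 4, 1 of the 5 methyltransferases was lower and none higher, but 4 were lower with either limma on log2(TPM + 1) or total counts. Kmt2a (MLL1) was at 62.4, 66.1 and 68.1 CPM in adipocytes, against 137, 159.8 and 159 CPM in preadipocytes (-1.21, SE 0.084, adjusted p = 1.71e-06). The enhancer enzymes Kmt2c (0.16, SE 0.15, adjusted p = 0.357) and Kmt2d (-0.08, SE 0.099, adjusted p = 0.483), the promoter enzyme Kmt2b (0.11, SE 0.076, adjusted p = 0.215) and Kmt2e (-0.16, SE 0.095, adjusted p = 0.166), which has no known methyltransferase activity, were not called. Kmt2e was the most abundant of them by TPM, at 108, 111 and 133 CPM in adipocytes, against 123, 135 and 135 CPM in preadipocytes, with overlapping groups. The replicate block called Kmt2c higher (adjusted p = 0.0292) and Kmt2e lower (adjusted p = 0.0173). Kmt2b (-0.22), Kmt2d (-0.41) and Kmt2e (-0.48) were lower with total counts and, at -0.28, -0.53 and -0.71, with limma on log2(TPM + 1). Of 9 further subunits of COMPASS complexes, some shared and some found with particular enzymes only, 3 were higher and 1 lower (0 and 5 with total counts, and 1 higher without preadipocyte library 2). Dpy30 was the largest rise (0.48, SE 0.098, adjusted p = 0.00190) and Ash2l the fall (-0.39, SE 0.088, adjusted p = 0.00338).

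Among the methyltransferases of H3 lysine 9 and the core of the H3 lysine 27 complex, both of silent chromatin, 2 of 7 members fell and 1 was higher. With either limma on log2(TPM + 1) or total counts, 6 were lower and none higher. Setdb1, which trimethylates H3 lysine 9, was at 38.9, 39.8 and 39.2 CPM in adipocytes, against 64.9, 62.7 and 60.5 CPM in preadipocytes (-0.67, SE 0.071, adjusted p = 2.65e-05). Ehmt2 (G9a), which dimethylates that residue and had the highest mean TPM of all members, was at 307, 251 and 235 CPM in adipocytes, against 315, 257 and 274 CPM in preadipocytes and not called (-0.09, SE 0.12, adjusted p = 0.501). Its partner Ehmt1 was not called either (0.01, SE 0.077, adjusted p = 0.926), but with total counts Ehmt2 (-0.42) and Ehmt1 (-0.32) were both called lower. In the Polycomb complex PRC2, the catalytic subunit Ezh2 was at 17.1, 19.01 and 20.2 CPM in adipocytes, against 28.7, 27.6 and 26.3 CPM in preadipocytes (-0.55, SE 0.092, adjusted p = 0.000560). The scaffold subunit Suz12 was at 41.9, 54.1 and 64.6 CPM in adipocytes, against 30.9, 37.96 and 36.6 CPM in preadipocytes (0.61, SE 0.15, adjusted p = 0.00648), a call that total counts ended (0.28). Eed, the subunit that reads the mark and the most abundant of the core by TPM, was at 19.6, 18.5 and 21.2 CPM in adipocytes, against 20.8, 20.5 and 22.2 CPM in preadipocytes (-0.10, SE 0.090, adjusted p = 0.353), and Ezh1, the alternative catalytic subunit, did not pass (-0.04, SE 0.081, adjusted p = 0.659). Upper-quartile factors gave -0.23 for Eed and a call, and total counts called both Eed (-0.42) and Ezh1 (-0.37) lower. Of 6 tested accessory subunits 1 was higher, Phf19 (2.46, SE 0.20, adjusted p = 5.13e-06), and 2 lower, led by Rbbp7 (-0.71, SE 0.067, adjusted p = 1.31e-05).

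Of 14 further histone methyltransferases outside the name rule, 9 were lower and 2 higher (9 and 4 with the replicate block). Without adipocyte library 1, 8 were lower and 4 higher. Lower were 7 without adipocyte library 2, preadipocyte library 2 or preadipocyte library 3. Of all tested genes 37.9% were lower and 35.7% higher. Setd7 led the falls, at 31.7, 37.9 and 34.4 CPM in adipocytes, against 108, 124 and 123 CPM in preadipocytes (-1.77, SE 0.096, adjusted p = 3.32e-07), and Setd1a, a COMPASS enzyme, led the rises (0.82, SE 0.069, adjusted p = 6.1e-06).

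Among demethylases of H3 lysine 27 and other JmjC members, 2 of 4 were higher and none lower, but with either limma on log2(TPM + 1) or total counts 1 was higher and 1 lower. Kdm6b, which removes methyl groups from H3 lysine 27, was at 173, 162 and 170.4 CPM in adipocytes, against 86.3, 83.2 and 83.1 CPM in preadipocytes (1.002, SE 0.068, adjusted p = 1.4e-06). Its X-linked paralogue Kdm6a had -0.24, SE 0.11, adjusted p = 0.0908 and was called lower with the replicate block (adjusted p = 0.00603) and without adipocyte library 3 (-0.31, edgeR adjusted p = 0.0185). It was lower as well with upper-quartile factors (-0.37), total counts (-0.56) and limma on log2(TPM + 1) (-0.73). Kdm7a, which acts on H3 lysines 9 and 27, was higher (0.83, SE 0.20, adjusted p = 0.00441), with 121, 164 and 205 CPM in adipocytes, against 72.7, 106 and 95.9 CPM in preadipocytes. That call was lost with total counts (0.51). Kdm8 was rare and not called (-0.02, SE 0.26, adjusted p = 0.951).

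In the KDM3 and KDM4 families, which act mainly on H3 lysine 9, 1 of 5 tested members was higher and 1 lower. Total counts gave 1 and 3, limma on log2(TPM + 1) 1 and 4, and the replicate block 2 and 3. Kdm4b was at 124, 98.1 and 102 CPM in adipocytes, against 60.6, 52.03 and 50.6 CPM in preadipocytes (0.99, SE 0.11, adjusted p = 4.52e-05). Kdm4c was at 19.9, 22.4 and 24.9 CPM in adipocytes, against 29.9, 34.8 and 32.1 CPM in preadipocytes (-0.53, SE 0.11, adjusted p = 0.00161). The 2 paralogues differed in direction, each with no overlap. Kdm3a, the most abundant by TPM, was at 115, 126 and 143 CPM in adipocytes, against 138, 153 and 149 CPM in preadipocytes and not called (-0.20, SE 0.094, adjusted p = 0.0856); Kdm3b (-0.15, SE 0.069, adjusted p = 0.0825) and Kdm4a (0.20, SE 0.086, adjusted p = 0.0647) were not called either. With the replicate block Kdm3a (adjusted p = 0.00471) and Kdm3b (adjusted p = 0.0123) were called lower and Kdm4a (adjusted p = 0.00188) higher. Kdm4a was also called higher with RLE factors (0.26), no low-count filter (0.27), DESeq2 (0.26) and the effective-length offset (0.21). It was lower with limma on log2(TPM + 1) (-0.28). Total counts called Kdm3a (-0.53) and Kdm3b (-0.47) lower. Without adipocyte library 3, edgeR called Kdm3a lower (-0.23, adjusted p = 0.0493) and Kdm4a higher (0.29, adjusted p = 0.0266), and without preadipocyte library 1 it called Kdm4a higher (0.27, adjusted p = 0.0202).

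Of the 4 KDM5 demethylases, which act on H3 lysine 4, 1 was higher and 1 lower, but none higher and 2 lower with either limma on log2(TPM + 1) or total counts. Kdm5b was at 86.6, 96.6 and 98.9 CPM in adipocytes, against 128, 142 and 137 CPM in preadipocytes (-0.53, SE 0.080, adjusted p = 0.000297). Kdm5c, its X-linked paralogue, was at 180.2, 176 and 178 CPM in adipocytes, against 129, 127 and 133 CPM in preadipocytes (0.46, SE 0.066, adjusted p = 0.000219), a call that total counts ended (0.13). Kdm5a, the most abundant by TPM, was at 138, 162 and 190.2 CPM in adipocytes, against 157, 193 and 184 CPM in preadipocytes and not called (-0.12, SE 0.13, adjusted p = 0.404), although total counts called it lower (-0.45). The Y-linked Kdm5d stayed at 0.476 to 1.12 CPM in adipocytes and 0.617 to 1.03 CPM in preadipocytes. Kdm1a (LSD1), which removes mono- and dimethyl marks with a flavin cofactor, was at 53.6, 54.9 and 50.6 CPM in adipocytes, against 69.6, 69.1 and 68.2 CPM in preadipocytes (-0.38, SE 0.070, adjusted p = 0.00106), and Kdm1b had 0.08, SE 0.090, adjusted p = 0.444, against -0.25 with total counts. For H3 lysine 36, Kdm2b, which binds unmethylated CpG islands, was at 27.5, 26.3 and 23.7 CPM in adipocytes, against 50.3, 53.3 and 50.9 CPM in preadipocytes (-0.997, SE 0.084, adjusted p = 6.18e-06), and the more abundant Kdm2a was at 182, 199 and 199.9 CPM in adipocytes, against 212, 217 and 214 CPM in preadipocytes (-0.15, SE 0.072, adjusted p = 0.0948). The Kdm2a groups did not overlap, and it was called lower in 6 of 16 alternatives. These were the replicate block (adjusted p = 0.0191), upper-quartile factors (-0.28), the effective-length offset (-0.28), total counts (-0.47) and both limma fits (-0.78 with limma on log2(TPM + 1)).

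Of 7 other JmjC proteins, 6 were higher and none lower, against 35.7% and 37.9% of all tested genes. With limma on log2(TPM + 1) 3 were higher and 2 lower (22.2% and 56.6% of all genes). Jarid2, a Polycomb partner with no demethylase activity, was at 54.6, 53.95 and 62.5 CPM in adipocytes, against 17.9, 17.7 and 18.4 CPM in preadipocytes (1.66, SE 0.087, adjusted p = 2.69e-07). The leading member by fold, the Y-linked Uty (2.20, SE 0.68, adjusted p = 0.0168), had 0.432 CPM in adipocyte library 1 and 3.74 and 4.50 CPM in adipocyte libraries 2 and 3, against 0.593 to 0.653 CPM in preadipocytes. The groups overlapped, and the call was lost without adipocyte library 3 (1.76, edgeR adjusted p = 0.0544) and with limma on log2(TPM + 1).

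Arginine methyltransferases held 2 higher and 3 lower members among 7 tested, but none higher and 4 lower with total counts, and none higher and 5 lower with limma on log2(TPM + 1). Prmt1, which makes most of the asymmetric dimethylarginine in cells, was at 50.4, 43.7 and 38.5 CPM in adipocytes, against 74.1, 59.3 and 62.9 CPM in preadipocytes (-0.57, SE 0.12, adjusted p = 0.00255). Prmt2 was at 17.7, 14.1 and 13.02 CPM in adipocytes, against 33.7, 25.4 and 26.5 CPM in preadipocytes (-0.93, SE 0.15, adjusted p = 0.000452), and Prmt3, known for a ribosomal protein substrate, fell too (-0.51, SE 0.11, adjusted p = 0.00247). Prmt5, which makes symmetric dimethylarginine, was at 50.4, 47.6 and 39.3 CPM in adipocytes, against 33.2, 30.5 and 30.2 CPM in preadipocytes (0.55, SE 0.11, adjusted p = 0.00132), and Prmt7, a monomethylating enzyme, was higher (0.45, SE 0.13, adjusted p = 0.0103). The call of Prmt5 was lost with total counts (0.22), as was that of Prmt7 (0.13), whose value was -0.10 with limma on log2(TPM + 1). Prmt6 (-0.07, SE 0.096, adjusted p = 0.545) and Prmt9 (0.18, SE 0.098, adjusted p = 0.129) were not called, and the replicate block called Prmt9 higher (adjusted p = 0.0275), as did edgeR without adipocyte library 1 (0.27, adjusted p = 0.0218). Prmt6 was called lower at -0.40 (total counts) and -0.52 (limma on log2(TPM + 1)), and Prmt9 lower with limma on log2(TPM + 1) (-0.36). By TPM, Prmt5 made up 16.2% ± 0.764 of the class in adipocytes and 8.63% ± 0.315 in preadipocytes, and Prmt1 49.9% ± 3.38 in adipocytes and 58.8% ± 1.48 in preadipocytes (SD, n = 3 each).

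With 3 libraries against 3, an exact test of 1 share of class TPM cannot give a p below 0.10, and none is given. Of the 12 ratios between members computed, chosen after their values were seen, 11 were apart between the groups. Ezh1 to Ezh2 overlapped, at 1.34, 0.951 and 1.15 in adipocytes against 0.946, 0.839 and 0.966 in preadipocytes. Dnmt3a to Dnmt1 was 4.53, 4.64 and 5.39 in adipocytes against 0.794, 0.897 and 0.889 in preadipocytes. Tet3 to Tet1 was 39.2 ± 2.27 in adipocytes and 8.71 ± 0.092 in preadipocytes, and Kdm6b to Kdm6a 1.87 ± 0.24 in adipocytes and 0.80 ± 0.029 in preadipocytes (SD, n = 3 each).

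The enzymes depend on small molecules. Of 11 genes with a part in making, using or clearing these, 8 were higher and 1 lower, against 35.7% and 37.9% of all tested genes. With either limma on log2(TPM + 1) or total counts 8 were higher and 3 lower. The shares of all genes were then 22.2% and 56.6% with limma and 26.6% and 50.8% with total counts. Acly, which makes acetyl-CoA from citrate, was at 2112, 1953 and 1969 CPM in adipocytes, against 214, 203 and 202 CPM in preadipocytes (3.28, SE 0.079, adjusted p = 3.85e-09). Nampt, which makes NAD from nicotinamide, was at 352, 396 and 444 CPM in adipocytes, against 68.7, 73.99 and 71.7 CPM in preadipocytes (2.48, SE 0.10, adjusted p = 6.04e-08). Mat2a, which makes the methyl donor S-adenosylmethionine, was at 608, 726 and 743 CPM in adipocytes, against 305, 334 and 318 CPM in preadipocytes (1.12, SE 0.096, adjusted p = 6.98e-06). The lower gene was Idh2, a mitochondrial dehydrogenase that makes 2-oxoglutarate (-0.44, SE 0.12, adjusted p = 0.00957), a call lost without adipocyte library 2 (-0.36, edgeR adjusted p = 0.0753) or 3 (-0.31, edgeR adjusted p = 0.0667). The subunits that carry deacetylases and LSD demethylases held 3 higher and 4 lower genes among 18 (7 and 5 with the replicate block, 2 and 12 with total counts, and 2 lower without adipocyte library 2). Mta3 led the rises (1.32, SE 0.084, adjusted p = 9.11e-07) and Chd3 the falls (-1.41, SE 0.069, adjusted p = 1.73e-07), both parts of NuRD complexes.

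Reads of some further members could also be divided with other genes. At least 10% of the 31-base words occur in other genes on the same strand for Kat2b (14.6%, mainly Kat2b-ps), Kat14 (13.7%, mainly Pet117), Dnmt3b (13.5%, mainly Dnmt3c) and Setdb1 (10.1%, mainly Gm4349). On the opposite strand this holds for Kdm3b (25.3%, mainly Gm26538), Prmt6 (22.9%, mainly C130013H08Rik), Hdac4 (21.9%, mainly Gm26720) and Kat5 (10.6%, mainly Rnaseh2c). These shares are over annotated transcripts and do not give the size of the uncertainty in the counts, which was not tested. Kat2b-ps had 0 expected counts over all libraries, and Dnmt3c 1 count in adipocytes and 0 in preadipocytes.

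Some members also differed in the length of the transcripts counted for them. The deposited length of a gene is an average over its transcripts weighted by their abundance in that library. It differed by more than 15% of the shorter mean without overlap for 5 of 74 members (6.76%), against 6.00% of all tested genes. Hdac9 averaged 3111, 4114 and 4059 bases in adipocytes against 7182, 7044 and 6688 bases in preadipocytes. The groups lie far apart, and Hdac9 RNA was both shorter on average and higher in adipocytes. Its lengths rest on few reads, above all in preadipocytes, where Hdac9 stood at 1.53, 1.90 and 1.96 CPM. Kdm2b averaged 3015 ± 67.5 bases in adipocytes and 3812 ± 102 in preadipocytes, and Hdac4 4471 ± 306.5 in adipocytes and 5219 ± 358 in preadipocytes (SD, n = 3 each). Longer in adipocytes were Hdac10, at 2320 ± 84.3 bases against 1985 ± 140.3 in preadipocytes, and Sirt4, at 1013 ± 13.8 bases against 865 ± 76.4 in preadipocytes. GENCODE M21 lists 10 transcripts of Hdac9, of 753 to 7940 bases, and which of them changed was not analysed here. 

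**Figure D5:**
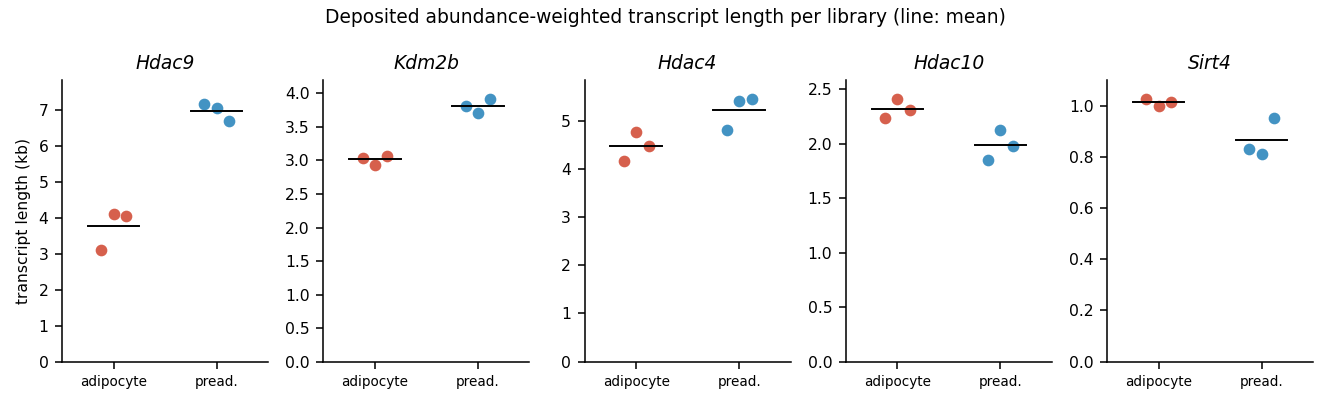
Abundance-weighted transcript length in kilobases (vertical axis, from 0) per library for the 5 members that passed the length rule, adipocytes left and preadipocytes right in each panel, with the group mean as a line. Hdac9, Kdm2b and Hdac4 are shorter in adipocytes and Hdac10 and Sirt4 longer; the Hdac9 libraries lie at 3111 to 4114 bases in adipocytes and 6688 to 7182 bases in preadipocytes.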

How the data were processed

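RNA from 3 adipocyte and 3 preadipocyte libraries was quantified by the authors, and 1 gene table per library was deposited. Per the file headers, the tables hold expected counts, TPM, FPKM, length and effective length; the tools named per the submitters' processing notes are DESeq2, RSEM, Bowtie2 and Bowtie, and the builds mm10 and GRCm38, while their versions and roles were not stated. The deposited expected counts divide a read that matches several genes among them by a model; the deposited TPM is scaled within a library; the deposited length and effective length are other values per gene and library. FPKM was not used. Strandedness is not stated.

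Gene identifiers were matched to GENCODE M21 (54723 of 54752). Expected counts were rounded, filtered with filterByExpr and tested with the quasi-likelihood F-test of edgeR 4.0.16 (R 4.3.3) after TMM normalization. TMM factors were 0.880 to 0.902 in adipocytes and 1.11 to 1.13 in preadipocytes. No covariate was used, and p-values were adjusted by Benjamini-Hochberg at 0.05. The fit was run on simulated counts with few genes changed and a common dispersion. Those counts cannot check the scaling of these data, in which 73.5% of tested genes were called. CPM used TMM-scaled library sizes. Alternatives were RLE, upper-quartile and total-count scaling, no low-count filter, DESeq2 1.42.0, limma 3.58.1 on log2(TPM + 1) and log2(TPM + 0.1), an effective-length offset, the replicate number as a block, removal of the 50 most abundant genes, and each library left out. Deviations from group means correlated between libraries of the same number at 0.66, 0.30 and 0.26 for numbers 1, 2 and 3. All lay above the limit of 0.1, but only for number 1 was the same number the best match in both directions. The labels do not say what a number shares. The fit reported is unpaired and leaves this possible pairing out. The replicate block is an alternative, and its values stand beside results it changes. No 2 libraries agreed within counting noise.

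The members and gene lists were chosen with earlier results of these data known. Per class, the largest called rise, the largest called fall and the member of highest mean TPM are given in full, and of supporting lists the largest called rise and fall; other genes named were chosen after their values were seen. Shared sequence was counted as 31-base words of annotated transcripts found in other genes. RefSeq promoter windows were searched for 8 motifs.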

Additional observations from a re-analysis of the deposited data

How the results depend on the processing

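The 23 higher and 21 lower members became 13 and 43 with total counts, and 9 and 46 with limma on log2(TPM + 1) and on log2(TPM + 0.1) alike; over all genes the higher calls became 3266 and 3248 with the 2 limma fits. Leaving out each library in turn gave 22 to 24 higher and 20 to 22 lower members, and 4929 to 5466 higher and 5120 to 5606 lower genes over all. Blocking on the replicate number gave 27 higher and 29 lower members; it changed the calls of 12 members, all given above, and of no other member. Removing the 50 most abundant genes changed no member's call. Of 1184 recomputed member values, 26 changed sign, in 12 genes, where at least 1 of the 2 fits made a call. With total counts these were Kmt2b (-0.22), Ehmt1 (-0.32), Kdm1b (-0.25) and Kmt5b (-0.011). With limma on log2(TPM + 1) and log2(TPM + 0.1), in that order, they were Kmt2b (-0.28 and -0.29), Kdm4a (-0.28 and -0.29), Ehmt1 (-0.50 and -0.52), Kmt5b (-0.17 and -0.18), Kat7 (-0.0068 and -0.0070), Kat8 (-0.29 and -0.30), Tet2 (-0.46 and -0.52), Prmt7 (-0.10 and -0.11), Prmt9 (-0.36 and -0.38), Hdac6 (-0.19 and -0.20) and Sirt7 (-0.018 and -0.019). The cause was not tested, beyond the shift of all genes given above. The 4 untested members had 0 to 15 counts per group, too few for the filter. Whether their RNA was absent or missed at this depth was not tested.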
